A study of Homo sapiens with 24 samples.

Results

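Intact QKI7 was compared with a form of QKI7 lacking the KH domain in U2OS cells after 8 h of a chase. The comparison used 4 of the 24 libraries of the series, chosen by their labels alone: 2 labelled QKI7-WT and 2 labelled QKI7-dKH. U2OS is a human osteosarcoma line. Both groups carried the same QKI-targeting guide (sgQKI), so endogenous QKI was targeted in both, and both received actinomycin D (5 µg/mL) together with sodium arsenite (200 µM). They differed in the add-back construct, wild-type QKI7 or QKI7 without KH. Libraries of 2 other genotypes are used where a result calls for them: sgNS+EV, with the sgNS control guide and an empty vector, and sgQKI+EV, with the QKI guide and an empty vector. The same genotypes at 0 h and 4 h of the chase are used in the same way. PolyA RNA was sequenced with 2 libraries per group. The labels do not say whether replicates were separate cultures, clones or pools, so p-values measure only the spread between these libraries, which may be technical.

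QKI is a STAR-family RNA-binding protein that regulates splicing, localisation, translation and stability of mRNA. Its KH domain, with the flanking QUA2 region, contacts RNA and recognises the QKI response element, whose core is ACUAAC or ACUAAU. QKI7 is a splice isoform with its own C-terminal tail and is found largely in the cytoplasm. Actinomycin D blocks transcription, so the level of an mRNA late in the chase reflects both its level at the start and its loss since. Sodium arsenite is an oxidative stressor that halts much of translation and drives mRNA into stress granules.

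Values are the deposited signal of 12547 genes, on a linear scale that appears, from the values, to be set by ERCC spike-in RNA. Between the 4 libraries the signal differed as a whole. The endogenous signal summed to 819400 and 769600 in the QKI7-WT libraries and to 828100 and 872600 in the QKI7-dKH libraries. The median gene differed between the genotypes by −0.15 on the log2 scale, and 90% of genes were lower in QKI7-WT as deposited. All differences below are therefore relative to the median gene: the log2 of signal plus 1 was centred on each library's median, after which the all-gene median difference was 0.01. Replicates had Pearson r = 0.9981 in QKI7-WT and 0.9982 in QKI7-dKH across genes, which are not independent replicates. Ribosomal RNA and related small RNAs made up 2.6% and 4.13% of the endogenous signal with QKI7-WT, and 4.96% and 4.86% with QKI7-dKH; their part in the results was not tested. Mesenchymal and bone markers were present in all 4 libraries, with VIM signals from 2698 to 2998, SPARC from 612 to 703 and COL1A1 from 115 to 132. RUNX2 was low, from 3.82 to 4.79. Of lists of other cell types, the blood list had 1 of 10 genes measured (CD68, 11.5 to 15.5), the hepatocyte list 1 of 6 (SERPINA1, 132 to 159) and the epithelial list 5 of 10, led by KRT8 and KRT18. The summed epithelial markers were 836 and 776 with QKI7-WT against 897 and 924 with QKI7-dKH, and none of the 7 differed past the threshold. COL1A2 and ALPL were not analysed here.

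The QKI gene itself (chr6:163414000-163578596, plus strand, GRCh38) did not differ past the threshold between the add-back genotypes at 8 h. Its signal was 18.7 and 17.97 with QKI7-WT and 17.83 and 19.05 with QKI7-dKH, values that overlapped as deposited but not after centring. The relative difference was 0.15 (SE 0.13, adjusted p = 0.805 in limma). In the same background with an empty vector QKI stood at 10.6 and 11.7, and in sgNS+EV at 24.1 and 21.95. At 4 h the difference between the add-backs was 0.61 and passed (adjusted p = 0.029), with signals of 50.5 and 32.8 against 24.8 and 22.6. The value is per gene, so transcript of the edited locus and of either construct cannot be told apart, and the missing KH domain cannot be checked from it.

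Of 12547 genes, 119 (0.948%) differed between the 2 add-backs at 8 h at an adjusted p below 0.05. Of these, 42 were higher in QKI7-WT (0.335%) and 77 were lower (0.614%), and genes that passed in this way are called higher or lower from here on. The differences were small. The median was 0.39 among the higher genes and −0.40 among the lower genes, 14 genes passed a 1.5-fold limit (4 higher and 10 lower), and MYL2 alone reached 2-fold. COL3A1 and FHL1 were among the widest higher genes, and MYL2, SUGCT and CXCL14 among the widest lower genes. The QKI7-WT and QKI7-dKH libraries, compared after centring, did not overlap for any of the 119, but the same was true of 52.9% of all genes, so this count says little by itself.

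**Figure D1:**
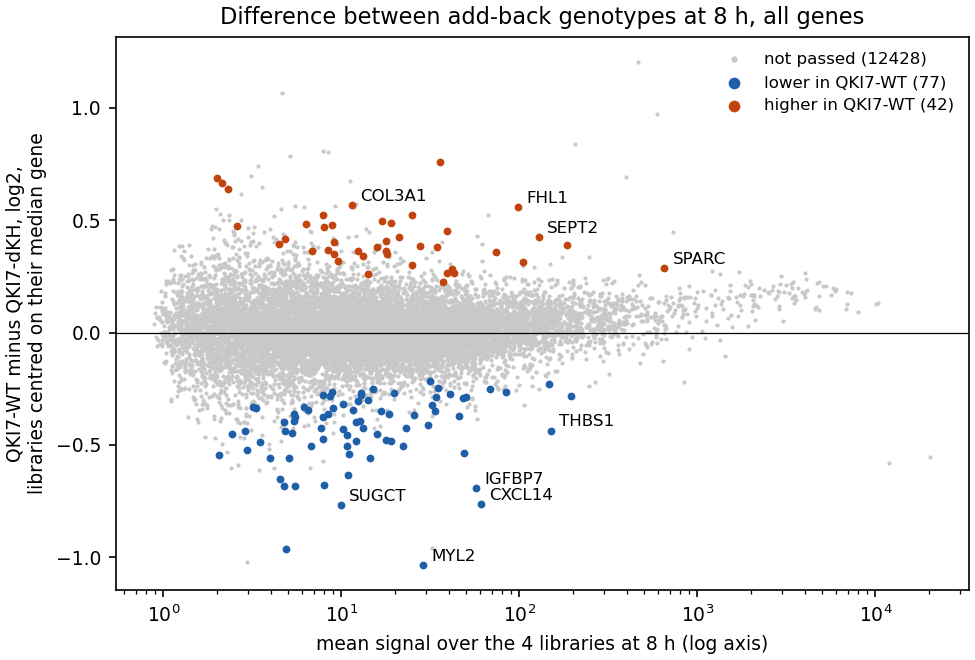
Mean signal over the 4 libraries at 8 h (horizontal, log axis) against the relative log2 difference, QKI7-WT minus QKI7-dKH (vertical), for 12547 genes; orange points are the 42 higher genes and blue points the 77 lower genes. Most genes that passed lie between 0.2 and 0.8 from the zero line, while genes of the highest signal sit slightly above it.

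The number of genes that passed rested on having all 4 libraries. With any 1 of them left out, 6 to 9 genes were higher and 16 to 23 lower. On the deposited scale, without centring, 6 were higher and 607 lower, so the split between directions is relative to the median gene. All 119 kept their sign in each of the settings tried in which they were tested, and 19 passed whichever of the 4 libraries was left out.

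The core of the QKI response element was looked up in the annotated 3′ UTRs of the genes with the widest differences, because it is the sequence that the KH domain recognises. The search used the letters ACTAAC and ACTAAT on the mRNA strand, in 1 principal transcript per gene of GENCODE 29 (GRCh38). Among the 12 widest higher genes, 7 had a match, and the matches of 6 of them are given here. For comparison, the 4 of the 12 widest lower genes (same limit) that had a match follow with their first match each. IGFBP7 and ITGA2 had 1 match, IFIT3 had 2 and COL8A1 had 3, so the number of lines does not compare the directions. Windows are read 5′ to 3′ on the gene's strand in DNA letters, all lie in 3′ UTRs, and capitals mark the core. A match is a description of the sequence, not evidence of a bound site.
COL3A1, chr2:189012411-189012436, plus strand: ggtcaagattACTAATatttgggaag
FHL1, chrX:136210550-136210575, plus strand: ctttcaaataACTAACacgaacttcc
FHL1, chrX:136210617-136210642, plus strand: ctttccccgtACTAACgtttggtttc
FHL1, chrX:136210773-136210798, plus strand: gcttaacaaaACTAACcctgctgtcc
FHL1, chrX:136211226-136211251, plus strand: gacaatacatACTAACattcttgtag
CREB3L1, chr11:46320798-46320823, plus strand: gttcttgctcACTAACccggatccgc
HTRA1, chr10:122514666-122514691, plus strand: tcttagtccaACTAATgcagtcgata
MMP13, chr11:102943706-102943731, minus strand: tcacacagacACTAACgaaatatcaa
GJA1, chr6:121449427-121449452, plus strand: tacacatacaACTAATttatttgaac
GJA1, chr6:121449582-121449607, plus strand: aatgaaaattACTAATttgtttgaca
IGFBP7, chr4:57031208-57031233, minus strand: aatccaatccACTAACactttagtta
IFIT3, chr10:89340631-89340656, plus strand: aggtcttacaACTAATcactggtagc
ITGA2, chr5:53090701-53090726, plus strand: tcgtaggtaaACTAACctggtatttt
COL8A1, chr3:99797002-99797027, plus strand: ctatggcccaACTAATataaacacct

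Matches were more frequent in the 3′ UTRs of the 42 higher genes than in those of all genes. How much more frequent varied between the other sets and fits given below, and 2 wider sets had shares near that of all genes. A 3′ UTR was found for 11254 genes, and 34.6% of them held at least 1 match. Among the 42 higher genes 37 had a 3′ UTR, and 23 of these (62.2%) held a match, against 34.5% for all genes at the same 3′ UTR lengths. Among the 77 lower genes 75 had one, and 36 (48%) held a match, against 42.3% at the same lengths. Per kilobase of 3′ UTR the higher genes held 0.755 matches, the lower genes 0.386 and all genes 0.354. FHL1 had 4 matches and GJA1 had 2. The reverse complement, looked at after these values were seen, was present in 32.4% of the higher, 53.3% of the lower and 35.2% of all 3′ UTRs.

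Among 573 genes with a 3′ UTR that were higher at an unadjusted p under 0.05, 34.4% held a match, and among 544 lower ones 45.8%. Where all 4 libraries with QKI7-WT or the control guide lay above the 4 others, 33.3% of 896 genes did, and where all 4 lay below, 44.8% of 518. The median 3′ UTR of the 2 higher sets was 860 and 896 bases and that of the 2 lower sets 1732 and 1666, against 1132 for all genes. Genes that passed at other times, some of them the same genes, gave other shares. At 4 h 76.9% of 39 genes higher in QKI7-WT and 38.1% of 105 lower ones held a match, and at 0 h 61.5% of 13 and 45.2% of 31. Between sgNS+EV and sgQKI+EV at 8 h, 40.2% of 522 genes higher in sgNS+EV and 34.2% of 184 lower ones did. Shares at equal length were not computed for any of these sets. The share among the higher genes also depended on the scaling and on which libraries entered the fit. It was 83.3% (5 of 6 genes) on the deposited scale, against 28% for all genes at their lengths. After quantile normalisation it was 43.7% (31 of 71), against 33.3%. A fit of the 8 libraries at 8 h called more genes higher, and 29.9% of 177 held a match, against 21.5% for all genes at their lengths. With the 4 compared libraries alone it was 27.2% of 378 genes, against 21.6%, and without the 4 h libraries 45.9% of 61, against 28.7%. The share at equal length was lower for these longer lists than for the 42 genes, which means that their 3′ UTRs were shorter. Over all genes the median difference was 0.02 for 7358 genes without a match and −0.002 for 2213 genes with 1. It was −0.01 for those with 2 and for those with 3 or more. The median 3′ UTR of these 4 sets was 691, 1849, 3000 and 4633 bases. In 5 classes of 3′ UTR length, medians with and without a match were close. They were 0.049 and 0.042 in the shortest class and −0.015 and −0.002 in the longest. The part of length was not tested.

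**Figure D2:**
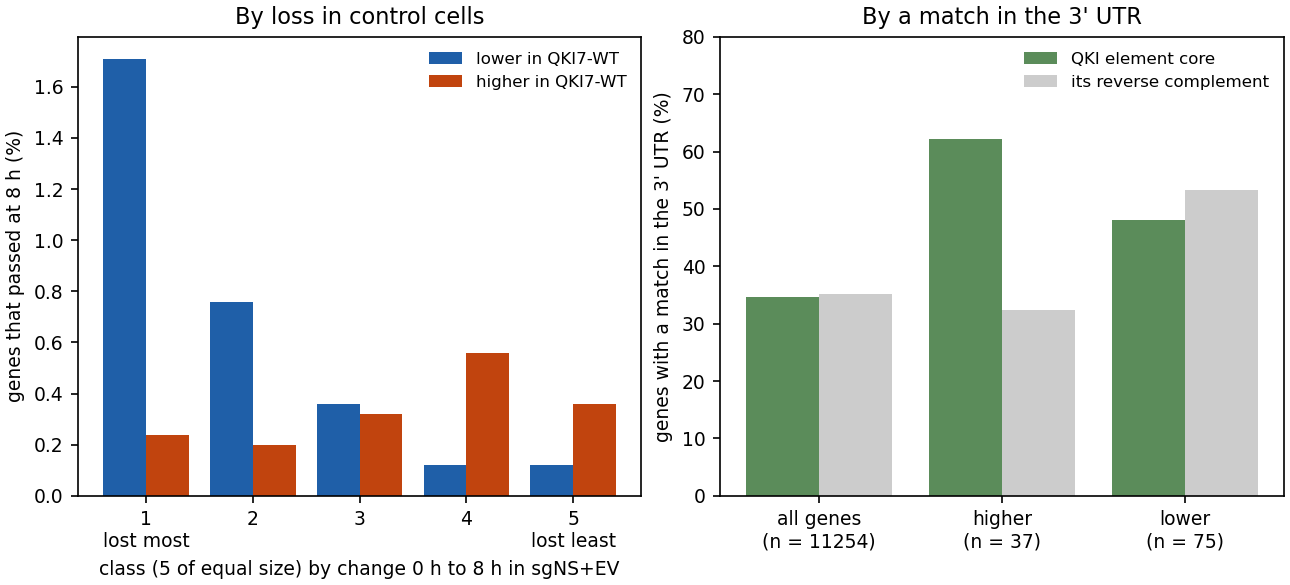
Left, percent of genes that passed at 8 h in each direction (vertical) for 5 equal classes of all genes by their change from 0 h to 8 h in sgNS+EV cells (horizontal); right, percent of genes with a match to the core of the QKI response element, or to its reverse complement, in the 3′ UTR (vertical) for all genes, higher genes and lower genes. Lower genes were most frequent in the class that lost most, 1.71%, and the core was found in 62.2% of higher genes against 34.6% of all genes.

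FHL1 (chrX:136146702-136211359, plus strand), a LIM-domain protein of striated muscle and the cytoskeleton, was higher in QKI7-WT. Its signal was 117 and 108 in QKI7-WT, 83.7 and 86.4 in QKI7-dKH, 62.7 and 62.1 in sgQKI+EV and 92.5 and 96.8 in sgNS+EV. The 4 libraries with QKI7-WT or the control guide lay above the 4 others. The difference between the add-backs was 0.56 (SE 0.0649, adjusted p = 0.000234), and it passed at 0 h (0.40, adjusted p = 0.00623) and 4 h (0.39, adjusted p = 0.00538) as well. FHL1 passed with any 1 library left out. It was also higher in sgNS+EV than in sgQKI+EV, by 0.40 (adjusted p = 0.00164), a comparison that shares no library with the first.

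Among collagens and matrix proteins the higher genes included COL3A1, the chain of type III collagen. Its signal was 13.8 and 12.5 with QKI7-WT against 9.38 and 9.95 with QKI7-dKH, with a difference of 0.57 (SE 0.0622, adjusted p = 0.000135) that held without any 1 library. In sgNS+EV COL3A1 was far higher still, at 29.6 and 30.5, while sgQKI+EV stood at 12.5 and 12.3. SPARC, a collagen-binding glycoprotein of bone matrix, was higher at a much greater signal, 703 and 660 against 612 and 636 (0.29, adjusted p = 0.0193). TGFBI, a secreted adhesion protein induced by TGF-β, was 24.9 and 21.6 against 18.3 and 19.9 (0.43, adjusted p = 0.0143). The libraries of each of these genes did not overlap, as for all 119 genes that passed. SPARC and TGFBI each lost the call when any 1 of the 4 was left out. The differences then ran from 0.263 to 0.309 for SPARC and from 0.368 to 0.482 for TGFBI.

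HTRA1, MMP7 and MMP13, which encode secreted proteases, were also higher. HTRA1, a secreted serine protease, had 21.97 and 20.61 with QKI7-WT and 15.63 and 18.02 with QKI7-dKH (0.49, SE 0.0666, adjusted p = 0.00123) and passed with any 1 library left out. MMP7, or matrilysin, had 9.60 and 8.36 against 5.94 and 7.69 (0.52, adjusted p = 0.0174). MMP13, a collagenase of bone and cartilage, had 9.71 and 10.1 against 7.35 and 8.18 (0.48, adjusted p = 0.0171). The calls of both metalloproteinases were lost without at least 3 of the 4 libraries in turn. The differences then ran from 0.409 to 0.632 for MMP7 and from 0.408 to 0.549 for MMP13. In the guide comparison MMP13 lay on the other side: sgNS+EV, at 8.65 and 8.396, was lower than sgQKI+EV, at 12.03 and 13.72 (−0.73, adjusted p = 0.000182). HTRA1 was lower in sgNS+EV too (−0.28, adjusted p = 0.0209), so for both genes the add-back and the guide comparisons differed in sign, a difference that was not itself tested.

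Other genes of the widest 12 had varied roles. GJA1, the gap-junction protein connexin 43, had 42.8 and 43.2 with QKI7-WT against 33.5 and 36.5 with QKI7-dKH (0.45, adjusted p = 0.00951), and at 4 h its difference was 0.61 (adjusted p = 0.000692). CREB3L1, a membrane-bound transcription factor that drives collagen genes in osteoblasts, had 18.96 and 18.85 against 14.2 and 15.4 (0.50, adjusted p = 0.00438). In sgNS+EV minus sgQKI+EV, CREB3L1 had the opposite sign (−0.32, adjusted p = 0.0235) and GJA1 the same sign (0.34, adjusted p = 0.0168). BPIFB4, a secreted protein of the BPI fold family, had 29.6 and 26.8 against 19.9 and 23.6 (0.52, adjusted p = 0.0079). DMPK, the kinase gene whose repeat expands in myotonic dystrophy, had 9.256 and 8.597 against 6.02 and 8.13 (0.47, adjusted p = 0.0468), and LINC01089, a long non-coding RNA, had 7.45 and 6.86 against 4.85 and 6.28 (0.48, adjusted p = 0.0094). None of these 5 overlapped, which the rule for naming them required, and DMPK and LINC01089 had 1 QKI7-dKH library close to the QKI7-WT values. Each of the 5 lost its call without at least 3 of the 4 libraries in turn. The differences then ran from 0.33 to 0.609 for DMPK and from 0.373 to 0.588 for LINC01089.

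**Figure D3:**
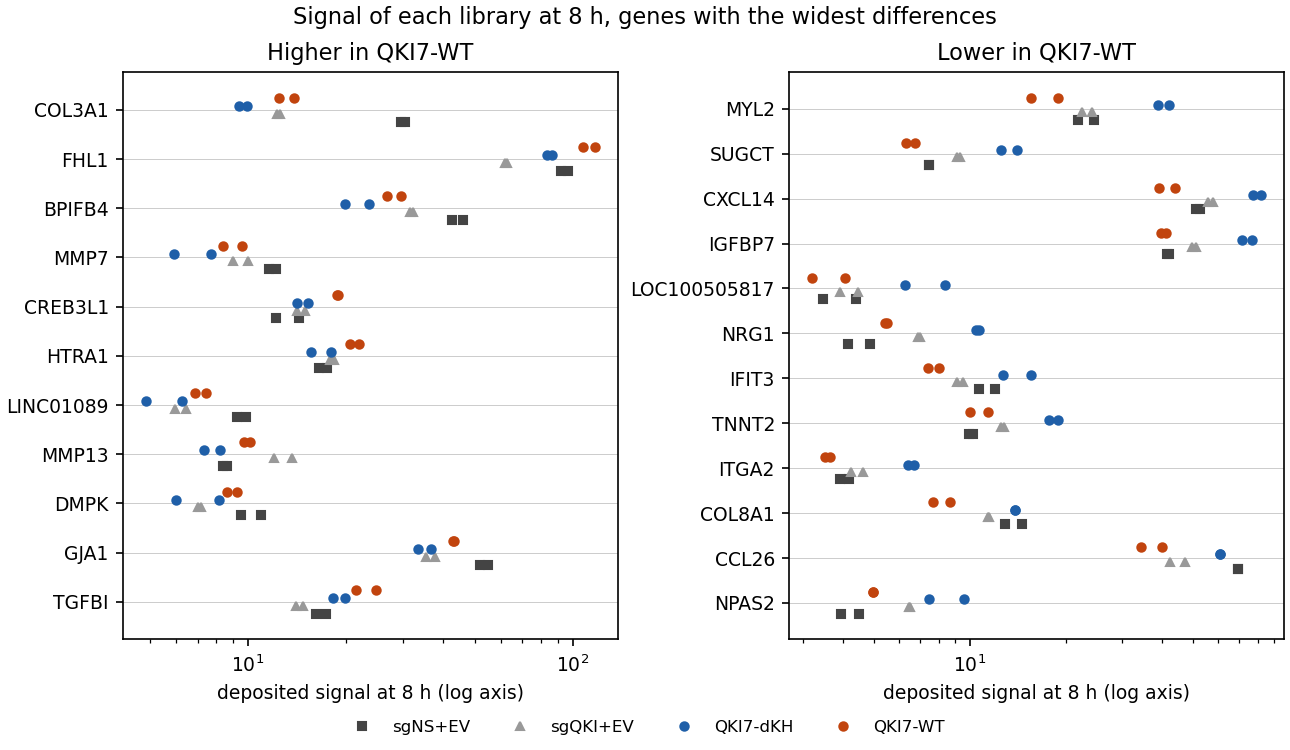
Deposited signal at 8 h (horizontal, log axis) of higher and lower genes with the widest differences, 1 symbol per library; orange circles are QKI7-WT, blue circles QKI7-dKH, grey triangles sgQKI+EV and dark squares sgNS+EV. For MYL2 the QKI7-WT libraries lie at 18.9 and 15.6 and the QKI7-dKH libraries at 39.0 and 42.2 and for FHL1 the order is reversed.

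MYL2 and TNNT2, both of the contractile apparatus of muscle, were lower in QKI7-WT. MYL2, the regulatory light chain of cardiac and slow-muscle myosin (chr12:110910819-110920722, minus strand), had signals of 18.9 and 15.6 with QKI7-WT against 39.0 and 42.2 with QKI7-dKH. Among genes that passed, this was the only difference past 2-fold (−1.03, SE 0.103, adjusted p = 6.17e-05), and it held without any 1 library. The empty-vector cells stood between, at 22.6 and 24.1 in sgQKI+EV and 21.9 and 24.5 in sgNS+EV. TNNT2, cardiac troponin T, had 11.4 and 10.0 against 17.7 and 18.9 (−0.56, adjusted p = 0.0354), with sgNS+EV at 9.99 and 10.2. Its call was lost without any of the 4 libraries in turn, while the difference ran only from −0.601 to −0.519.

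Of the 12 widest lower genes, 4 encode secreted signalling proteins, CXCL14, IGFBP7, NRG1 and CCL26, a grouping made after the values were seen. CXCL14, a chemokine of epithelia and fibroblasts (chr5:135570679-135579279, minus strand), had 44.2 and 39.3 with QKI7-WT against 77.5 and 82.1 with QKI7-dKH (−0.76, SE 0.0664, adjusted p = 1.44e-05). IGFBP7, a secreted protein that binds insulin-like growth factors (chr4:57030773-57110385, minus strand), had 41.2 and 39.8 against 71.4 and 76.6 (−0.69, SE 0.0587, adjusted p = 1.44e-05). Both kept their calls without any 1 library, with differences from −0.80 to −0.72 for CXCL14 and from −0.71 to −0.67 for IGFBP7. IGFBP7 in sgNS+EV, at 41.7 and 42.3, was near QKI7-WT, and in sgQKI+EV, at 49.8 and 51.1, it lay between the add-backs. Each add-back was compared with the same sgQKI+EV libraries: QKI7-WT was lower for IGFBP7 (−0.39, adjusted p = 0.00606) and QKI7-dKH was higher (0.30, adjusted p = 0.0238).

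NRG1, a ligand of ErbB receptors, had 5.51 and 5.42 with QKI7-WT against 10.7 and 10.4 with QKI7-dKH (−0.68, adjusted p = 0.0283). CCL26, an eosinophil-attracting chemokine, had 34.4 and 40.2 against 60.8 and 61.1 (−0.54, adjusted p = 0.0101), and was lower at 4 h by −1.03 (adjusted p = 3.14e-05). CCL2, the monocyte chemokine whose mRNA carries AU-rich elements, had 8.13 and 7.71 against 11.2 and 13.8 (−0.43, adjusted p = 0.027). At 4 h CCL2 lay on the other side, with 24.3 and 22.9 against 20.2 and 20.2 (0.07, adjusted p = 0.661). The libraries at 8 h did not overlap for these 3 genes, as for all 119 that passed and for 52.9% of all genes. Their calls were lost without at least 3 of the 4 libraries in turn. The differences then ran from −0.747 to −0.613 for NRG1, −0.689 to −0.384 for CCL26 and −0.516 to −0.342 for CCL2. CCL26 was higher in sgNS+EV, at 69.5 and 69.3, than in sgQKI+EV, at 47.4 and 42.4 (0.43, adjusted p = 0.0141), the opposite sign to the add-backs.

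Adhesion and matrix genes were found among the lower genes as well as the higher ones. MFAP5, a glycoprotein of elastic microfibrils, had 2.96 and 2.41 with QKI7-WT against 6.29 and 7.77 with QKI7-dKH (−0.96, SE 0.112, adjusted p = 0.000234). ITGA2, the collagen-binding integrin α2 chain, had 3.64 and 3.51 against 6.68 and 6.40 (−0.56, adjusted p = 0.00033), and both genes passed without any 1 library. COL8A1, a short-chain collagen of basement membranes, had 8.69 and 7.68 against 13.9 and 13.9 (−0.54, adjusted p = 0.00249), while THBS1, the matricellular protein thrombospondin 1, had 122 and 117 against 179 and 184 (−0.44, SE 0.0656, adjusted p = 0.00263). COL8A1 and THBS1 each lost the call without 2 of the 4 libraries in turn. Their differences with 1 library left out ran from −0.59 to −0.491 and from −0.464 to −0.408. In sgNS+EV minus sgQKI+EV, THBS1 had the opposite sign to the add-backs (0.27, adjusted p = 0.0206) and ITGA2 the same sign (−0.29, adjusted p = 0.0171). MFAP5 and COL8A1 did not pass there (0.08 and 0.05, adjusted p = 0.739 and 0.772). Of 39 measured genes in the extracellular matrix list, 5 were higher (COL3A1, MMP7, TGFBI, SPARC and NID1) and 3 lower (MFAP5, COL8A1 and THBS1). That is 20.5% against 0.948% of all genes, with a median of −0.07 against 0.01. This list and those below were chosen with earlier results of these data known, so their shares are not a test of a set. NID1, a basement membrane linker protein, lost its call when any 1 of the 4 libraries was left out, with differences from 0.34 to 0.374.

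Targets of the Hippo-pathway coactivators YAP and TAZ were lower where they passed. In that list of 22 measured genes none was higher and 4 were lower (18.2% passed, against 0.948% of all genes). Its median was −0.15 against 0.01, and it too was chosen with earlier results of these data known. CTGF, a matricellular growth-factor modulator, had 5.38 and 4.54 against 7.36 and 7.37 (−0.33, adjusted p = 0.0287). CYR61, its close relative, had 4.09 and 3.23 against 5.84 and 6.22 (−0.44, adjusted p = 0.0234). Both were far below their signal at 0 h. There CTGF had 211 and 223 against 279 and 269 (−0.19, adjusted p = 0.454). CYR61 had 253 and 260 against 311 and 297 (−0.10, adjusted p = 0.992). The list median at 0 h was −0.10. At 8 h CRIM1, a membrane protein that binds BMPs, had 41.2 and 39.6 against 56.3 and 54.9 (−0.29, adjusted p = 0.018). F3, tissue factor, had low signals of 1.59 and 1.83 against 2.95 and 3.32 (−0.45, adjusted p = 0.0495). TEAD1, a DNA-binding partner of YAP and the only gene of 37 Hippo components to pass (2.7%, against 0.948% of all genes), had 27.2 and 27.0 against 34.3 and 36.7 (−0.22, adjusted p = 0.0468). None of the 5 overlapped, as for all 119 genes that passed, and each lost its call without at least 3 of the 4 libraries in turn. The differences then ran from −0.557 to −0.344 for F3 and from −0.253 to −0.18 for TEAD1. Against the shared sgQKI+EV libraries CRIM1, CTGF and TEAD1 were higher in QKI7-dKH (0.37, 0.39 and 0.27, adjusted p = 0.00411, 0.0144 and 0.0163), while the QKI7-WT differences were 0.08, 0.06 and 0.05 (adjusted p = 0.716, 0.861 and 0.808). CTGF was also higher in sgNS+EV, at 6.58 and 6.87, than in sgQKI+EV, at 4.65 and 4.17 (0.33, adjusted p = 0.0117), the opposite sign to the add-backs. F3 was lower in sgNS+EV (−0.47, adjusted p = 0.0142), the same sign as the add-backs. CRIM1, CYR61 and TEAD1 did not pass there (0.09, −0.07 and 0.07, adjusted p = 0.348, 0.69 and 0.47).

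Interferon-stimulated genes and p53 targets each had 2 lower members and none higher, of 29 and 31 measured (6.9% and 6.45%, against 0.948% of all genes). The list medians were −0.08 in both, against 0.01, and both lists were chosen with earlier results of these data known. IFIT3, an antiviral protein induced by interferon, had 8.02 and 7.40 with QKI7-WT against 12.7 and 15.6 with QKI7-dKH (−0.63, SE 0.0758, adjusted p = 0.000307). At 0 h its difference was −0.20 (adjusted p = 0.513). OASL, an interferon-induced OAS-like protein, had 2.83 and 2.69 against 4.87 and 5.50 (−0.56, adjusted p = 0.0193). FAS, the death receptor, had 10.0 and 8.88 against 13.3 and 14.4 (−0.35, adjusted p = 0.0362), and RRM2B, the p53-induced ribonucleotide reductase subunit, had 36.7 and 37.7 against 53.8 and 54.8 (−0.37, adjusted p = 0.0332). IFIT3 passed without any 1 library, whereas OASL, FAS and RRM2B passed in none of the 4 such fits. Their differences there ran from −0.58 to −0.534, −0.381 to −0.309 and −0.433 to −0.31.

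SUGCT, a mitochondrial glutarate CoA-transferase, had 6.31 and 6.74 against 12.6 and 14.1 (−0.77, SE 0.116, adjusted p = 0.00272). The call was lost without 1 of the 4 libraries, and the differences with 1 left out ran from −0.85 to −0.682. NPAS2, a circadian transcription factor, had 4.99 and 4.97 against 7.47 and 9.63 (−0.51, adjusted p = 0.0349). PTBP2, the neuronal paralogue of the splicing repressor PTBP1 and the 1 gene of 41 SR proteins and hnRNPs to pass (2.44%, against 0.948% of all genes), had 17.6 and 16.4 against 25.6 and 29.5 (−0.50, adjusted p = 0.0143). TNFRSF11B, the osteoclast inhibitor osteoprotegerin and the 1 osteoblast-lineage gene of 7 to pass (14.3%), had 2.28 and 1.79 against 3.91 and 3.81 (−0.52, adjusted p = 0.0283), and the uncharacterised LOC100505817 had 4.06 and 3.21 against 6.28 and 8.40 (−0.68, adjusted p = 0.0358). NPAS2, PTBP2, TNFRSF11B and LOC100505817 passed in no fit that left out 1 of the 4 libraries. Their differences there ran from −0.62 to −0.393, −0.551 to −0.457, −0.597 to −0.45 and −0.816 to −0.549. PTBP2 was also lower in sgNS+EV, at 13.6 and 11.9, than in sgQKI+EV, at 21.5 and 22.3 (−0.93, adjusted p = 2.69e-05).

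The other lists held no gene that passed. All 77 measured cytosolic ribosomal protein genes nevertheless lay above 0, with a range from 0.05 to 0.26 and a median of 0.18, and in all 77 the centred libraries did not overlap, against 29.8% of all genes in that direction. RPL41, the member with the lowest p, had 6046 and 5683 with QKI7-WT against 5520 and 5911 with QKI7-dKH (0.20, adjusted p = 0.0968). On the deposited scale the median of the list was 0.02, so the position of these genes is relative to a median gene that was lower in QKI7-WT. At 0 h the median was 0.07 and at 4 h −0.001. The 22 elongation factor and other TOP mRNAs, whose translation is coupled to that of ribosomal proteins, behaved alike, with all 22 above 0, a median of 0.12 and −0.04 as deposited.

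Stress pathways and the machinery of mRNA decay held no gene that passed. ATF4, the main transcription factor of the integrated stress response, had 271 and 250 with QKI7-WT against 227 and 234 with QKI7-dKH (0.34, adjusted p = 0.102). Of the 39 genes of its list 32 lay above 0 (median 0.09), against 6838 of 12547 over all genes. FTL, ferritin light chain and an NRF2 target, differed by 0.27 (adjusted p = 0.104), with 31 of 37 list genes above 0. On the deposited scale the medians of these lists were −0.075 and −0.073. Mitotic and respiratory chain genes leaned the same way after centring, with 34 of 37 and 66 of 76 above 0. HSPH1 and HSPB1, both chaperones, differed by −0.20 and 0.27 (adjusted p = 0.137 and 0.232), and STARD4, a sterol transfer protein, by −0.27 (adjusted p = 0.174). Of 45 stress granule proteins none passed: G3BP1, a scaffold of these granules, had 203 and 190 against 218 and 229 (−0.03, adjusted p = 0.941), and G3BP2 24.8 and 25.2 against 29.6 and 33.2 (−0.16, adjusted p = 0.293). The 60 genes of mRNA decay had a median of −0.002. METTL1 and WDR4, which form the methyltransferase that places internal m7G, differed by 0.06 and 0.07 (adjusted p = 0.959 and 0.943). After centring the libraries overlapped for METTL1 but not for WDR4.

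**Figure D4:**
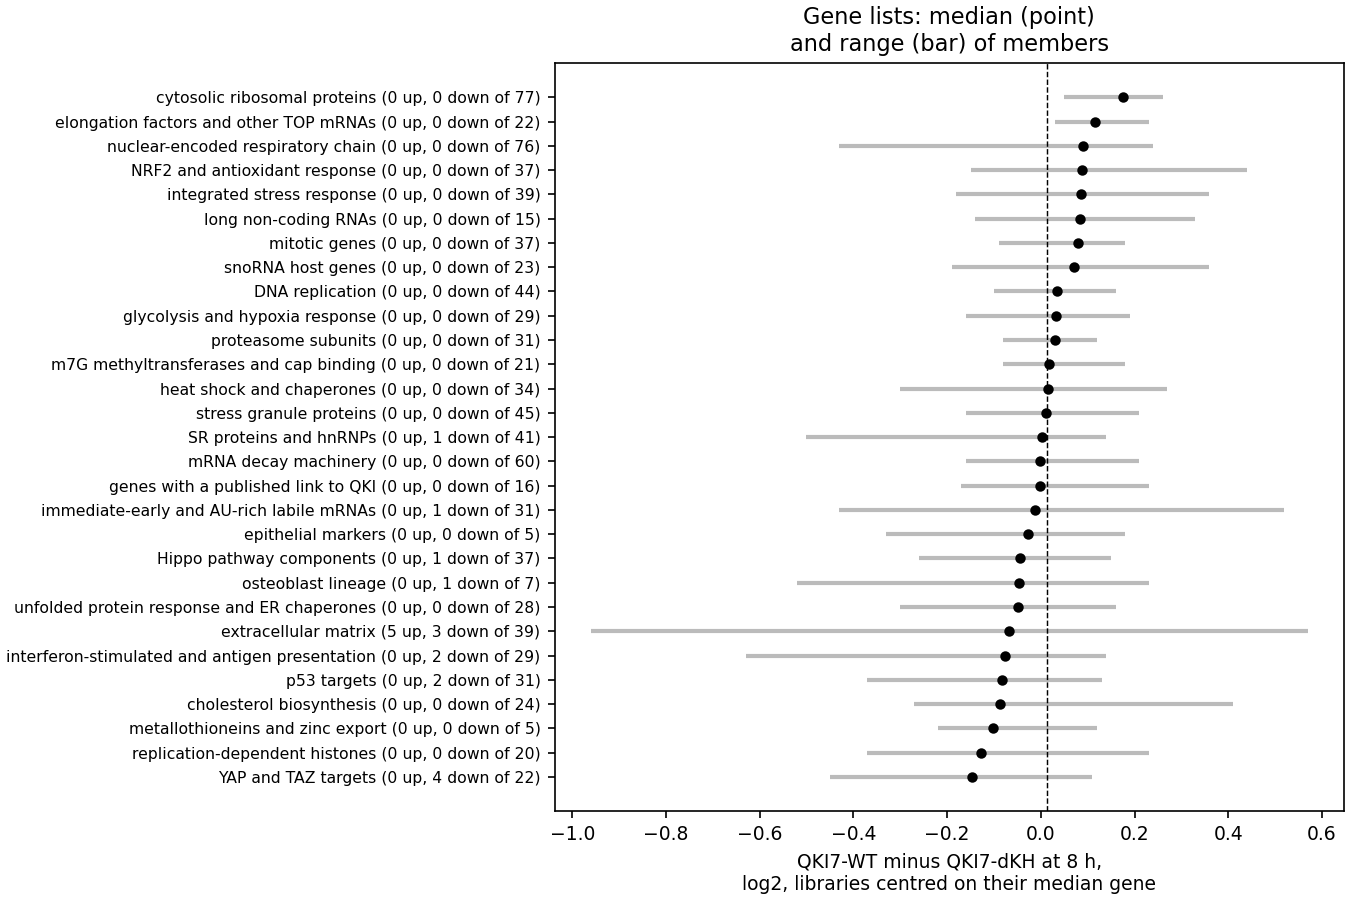
Relative log2 difference, QKI7-WT minus QKI7-dKH at 8 h (horizontal), for gene lists with at least 5 measured members (vertical), with the number of members that passed in each direction; points are list medians, bars run from the lowest to the highest member and the dashed line is the all-gene median of 0.01. The YAP and TAZ list has the lowest median, −0.15, and cytosolic ribosomal proteins the highest, 0.18, while extracellular matrix genes have the widest range.

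The same differences were largely present before the chase. At 0 h, in libraries that are all distinct from those at 8 h, 42 of the 42 higher genes and 77 of the 77 lower genes had the same sign, against 65.7% of all genes. At 0 h 12 of the higher genes passed in the same direction, where 0.12% of all genes did, and 21 of the lower genes, where 0.255% did (47 genes or 0.375% in all). In time order (0, 4 and 8 h) the median difference was 0.24, 0.29 and 0.39 among the higher genes, and −0.26, −0.32 and −0.40 among the lower genes. The genes were chosen at 8 h, which by itself places the widest median there. Whether the difference changed between 0 h and 8 h was tested as an interaction, and no gene passed (lowest adjusted p = 1, with 253 genes at an unadjusted p under 0.05).

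At 4 h 37 of the 42 higher genes and 76 of the 77 lower genes had the same sign, against 50.4% of all genes. Of these, 18 higher genes passed, where 0.327% of all genes passed in that direction, and 40 lower genes, where 0.885% did (152 genes or 1.21% in all). Agreement between replicates was poorest in QKI7-WT at 4 h, where r across genes was 0.9889, the lowest of the 12 groups. Without QKI7-WT replicate 2 at 4 h 4440 genes passed at that time, and without each of the other 3 libraries in turn between 23 and 79. Both QKI7-WT libraries at 4 h also entered the estimate of spread used at 8 h: without them 76 genes were higher and 134 lower at 8 h, among them all 119.

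**Figure D5:**
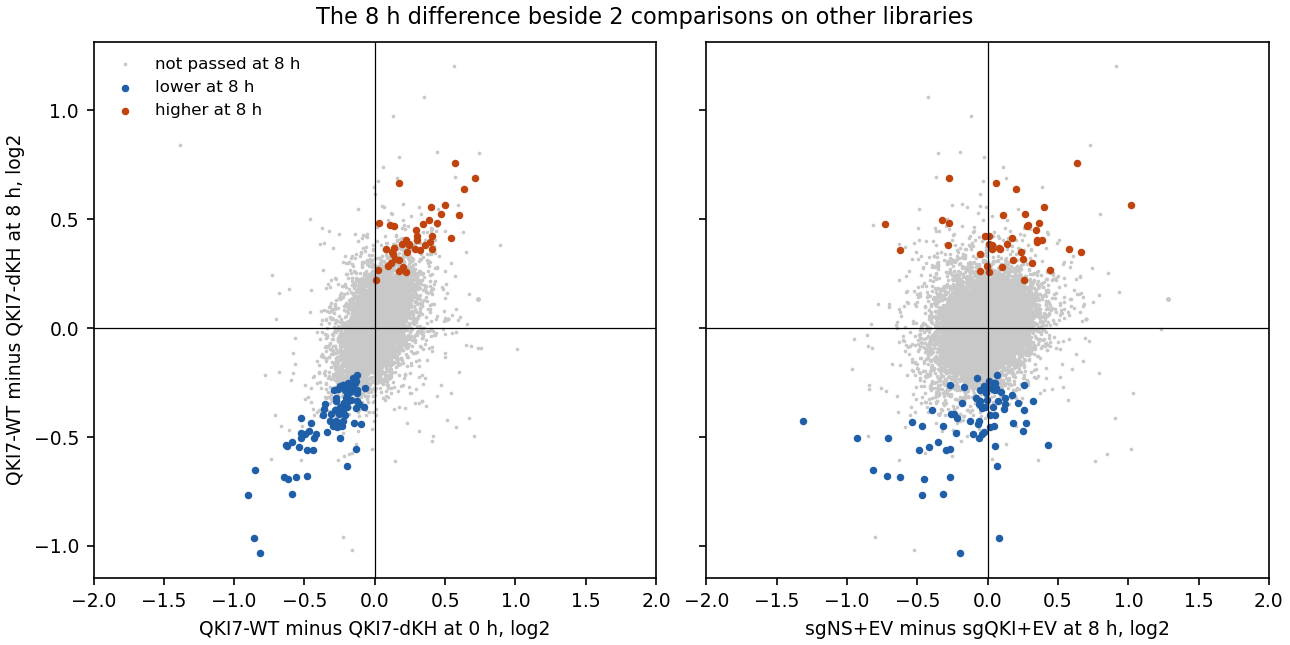
Relative log2 difference, QKI7-WT minus QKI7-dKH at 8 h (vertical), against the same difference at 0 h (left, horizontal) and against sgNS+EV minus sgQKI+EV at 8 h (right, horizontal); each point is 1 of 12547 genes, orange where higher and blue where lower at 8 h. All 119 coloured genes keep their sign at 0 h, whereas in the right panel 32 of 42 higher and 47 of 77 lower genes do.

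The control guide gave a second contrast, sgNS+EV minus sgQKI+EV at 8 h, on 4 other libraries. In it 766 genes passed (6.11%), 550 higher (4.38%) and 216 lower (1.72%) in sgNS+EV. Of the 42 genes higher in QKI7-WT, 32 had the same sign and 13 passed in the same direction, while 5 passed in the opposite one. Of the 77 lower genes, 47 had the same sign, 19 passed in the same direction and 4 in the opposite one, and over all genes 58.2% had the same sign. For 14 of 42 higher genes all 4 libraries with QKI7-WT or the control guide lay above the 4 others, against 7.68% of all genes. For 32 of 77 lower genes all 4 lay below, against 4.53%. Both counts include the ordering at 8 h by which the genes were chosen.

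The sgQKI+EV cells gave a reference for each add-back. For 67 of the 77 lower genes and 23 of the 42 higher genes the sgQKI+EV mean lay between those of QKI7-WT and QKI7-dKH, as it did for 32.1% of all genes. The 119 were chosen for a wide gap between the add-backs, which by itself tends to place another group between them, so nothing is read from these counts. Among the lower genes the median of QKI7-WT minus sgQKI+EV was −0.17 and that of QKI7-dKH minus sgQKI+EV 0.23. Among the higher genes these medians were 0.13 and −0.27. Both comparisons use the same sgQKI+EV libraries, so the pairs are given side by side only. For FHL1 the difference from sgQKI+EV was 0.76 in QKI7-WT (adjusted p = 2.2e-05) and 0.20 in QKI7-dKH (adjusted p = 0.228), while for COL3A1 it was −0.01 (adjusted p = 0.988) and −0.57 (adjusted p = 0.000353).

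Lower genes were mostly ones that are lost fast in control cells. Genes were split into 5 equal classes by their change from 0 h to 8 h in sgNS+EV, and the class that lost most (median −1.37 on the deposited log2 scale) held 43 of the 77 lower genes and 6 of the 42 higher genes. The next classes held 19, 9, 3 and 3 lower genes and 5, 8, 14 and 9 higher genes. Over all genes the median difference went from −0.02 in the class that lost most to 0.06 in the class that lost least. The 0 h difference of the same classes went from −0.015 to 0.021. Lower genes also had longer transcripts, with a median of 4007 bases against 3238 for all genes and 2787 for the higher genes. Across all genes the difference had a Spearman rho of −0.19 with transcript length and 0.23 with GC content. For the 0 h difference the rho with transcript length was −0.085. These values are a description over genes of the same libraries. The part of length and base composition in the results was not tested.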

How the data were processed

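PolyA RNA of U2OS cells was measured in 24 libraries, of which the 4 at 8 h labelled QKI7-WT or QKI7-dKH were compared. The authors deposited 1 table of linear signal per gene and library, with 12547 genes and 38 ERCC entries. The deposited signal appears scaled to the ERCC entries, from the values. The unit before that scaling is not given in the sources used here. Per the submitters' processing notes STAR, RSEM and GRCh38 were used, with versions not given. Read counts were not used here, so depth is unknown and precision comes from replicates.

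Log2 of signal plus 1 was centred on each library's median gene. A linear model with 12 group means over 24 libraries was fitted with a mean-variance trend in limma 3.58.1 under R 4.3.3. It had 12 residual and 4.8 prior degrees of freedom, and a median SE of 0.0934. P-values are two-sided, adjusted by Benjamini-Hochberg over 12547 genes, with a threshold of 0.05. Requiring a signal of 1 or more in 2 libraries removed 0 genes. The code was checked on simulated data. Adding 1 understates differences of genes with low signal.

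Named genes are the 12 widest differences per direction among passing genes whose mean signal was 5 or more and whose libraries do not overlap. QKI, METTL1, WDR4, G3BP1, G3BP2, up to 4 genes that passed in each of 32 lists, and members with the lowest p of lists without one were added. SPARC, NID1, KRT8, KRT18 and other markers are named beside this rule, and SEPT2 only in a plot and in the closing values. Members and lists were chosen with earlier results of these data known. Same-numbered replicates deviated from their group means with a correlation of −0.006 over 2 pairs, so the numbers were not taken to pair samples. Positions and 3′ UTRs are from GENCODE 29 (GRCh38). Some genes that the rule names are not reported here.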

Additional observations from a re-analysis of the deposited data

How the results depend on the processing

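All 119 genes kept their sign in every setting that tested them (113 with a mean signal of at least 5). The higher and lower counts of 42 and 77 became 6 and 607 on the deposited scale, 85 and 146 with quantile normalisation, and 22 and 177 with library totals. They became 27 and 53 with a pseudocount of 5, 456 and 304 with the 4 libraries alone, 210 and 180 with the 8 libraries at 8 h, 72 and 97 without the 4 h libraries, and 4 and 10 with a 1.5-fold limit. Without the QKI7-WT libraries at 4 h, a setting chosen after seeing the data, they were 76 and 134. Leaving out each library in turn gave 6 to 9 and 16 to 23, from fits in which 1 genotype has a lone library assumed to vary like the other groups; 9 of 37 named genes that passed did so in each of these fits. With a replicate block the counts were 42 and 71. The blocked fit kept 104 of the 119, and no pairing was shown.

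At 0 h 47 genes became 471 (deposited), 142 (quantile), 107 (pseudocount 5), 80 (without 4 h), 117 (without QKI7-WT at 4 h), 17 (1.5-fold) and 15 to 29 (leave-one-out). At 4 h 152 became 96 (totals), 248 (pseudocount 5), 25 (1.5-fold) and 23 to 4440 (leave-one-out). The median shift of −0.148 became −0.061 with library totals, and −0.197 to −0.096 with 1 library left out. The motif share of higher genes, all alternatives of which were added after seeing the data, was 83.3% (deposited), 43.7% (quantile), 27.2% (4 libraries), 29.9% (8 libraries), 45.9% (without 4 h), 100% (1.5-fold) and 71.4% to 100% (leave-one-out). That of lower genes was 33.3% (1.5-fold) and 54.5% to 63.2% (leave-one-out). Beyond what the settings remove, the cause of these moves was not tested.

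Differences that changed sign belonged to genes that had not passed. On the deposited scale these were QKI (−0.007), METTL1 (−0.097), WDR4 (−0.089), PSMC5 (−0.08), PSMB7 (−0.063), GINS3 (−0.001), ORC6 (−0.024), KHDRBS3 (−0.077), NCBP2 (−0.053) and NEAT1 (−0.023). METTL1 was −0.007 with library totals. With 1 library left out METTL1 ranged from −0.074 to 0.2, CD68 from −0.103 to 0.011 and SERPINA1 from −0.107 to 0, and RPL41 was 0 with quantile normalisation.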

Other observations

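Several small non-coding RNAs and snoRNA hosts had wide differences that did not pass, and their replicates differed. SNHG25, a snoRNA host, had 792 and 463 with QKI7-WT against 376 and 229 with QKI7-dKH (1.20, adjusted p = 0.268). RN7SL2, a 7SL RNA of the signal recognition particle, had 958 and 563 against 374 and 465 (0.97, adjusted p = 0.515), and RN7SL1 559 and 380 against 267 and 380 (0.69, adjusted p = 0.588). RN7SL1 and RN7SL2 are near-identical copies whose reads may have been split. These genes were chosen after their values were seen.

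SEPT2, a cytoskeletal GTPase outside the naming rule, had the lowest adjusted p among the higher genes next to COL3A1 (0.42, adjusted p = 0.000135), and its 3′ UTR held 5 matches to the core of the QKI response element.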
